A study of Homo sapiens with 18 samples.

Results

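SRF-ICA1L, a fusion of the serum response factor gene SRF with the gene ICA1L, was compared with SRF itself in MSC-hTERT, a human mesenchymal stem cell line immortalized with telomerase. The comparison used 6 of the study's 18 RNA-seq libraries, chosen by their column names: 3 from cells labelled SRF-ICA1L and 3 from cells labelled SRF, numbered 1 to 3 in each. The other 12 libraries are 3 each from cells labelled with the retroviral vector pMSCV and from cells labelled SRF-FOXO1, SRF-PDGFRB and SRF-RELA. They entered the model too, and took part in the filter on low counts, the scaling and the estimate of the spread. Where the replicate number is in the model, they also took part in estimating its effects. A comparison with them is made only where stated. No dose, time or further genotype distinguishes the groups in the labels. Cells of all groups were grown in medium with 10% serum and 1 ng/ml FGF-2, with heparin at 2 U/ml, ascorbic acid at 0.2 mM, glutamine at 1%, penicillin and streptomycin. The labels give neither which parts of SRF and ICA1L the construct joins nor whether the 3 libraries of a group came from separate cultures, so p-values measure the spread between these libraries, which may be technical.

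The 6 libraries held 23959470 to 28805368 counts. Of 61487 gene identifiers, 18544 passed a filter on low counts and were tested. FN1, the fibronectin gene, took 2.32% to 4.78% of the counts in SRF and 4.74% to 7.44% in SRF-ICA1L, with the highest share in SRF-ICA1L replicate 2. The 7 mesenchymal stem cell surface markers examined (THY1, NT5E, ENG, CD44, ALCAM, PDGFRA and PDGFRB) were all detected and summed to 1730.2 to 1889 CPM in SRF-ICA1L and 1958 to 2064 CPM in SRF. The 6 blood cell markers summed to 2.97 to 4.13 CPM in SRF-ICA1L and 2.104 to 3.89 CPM in SRF, most of it CD34, and PTPRC, the gene of the leukocyte antigen CD45, was at 0.25 CPM or less in each of these libraries. CPM is the count of a gene scaled to the library's total.

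SRF is a transcription factor that binds the CArG box, a short sequence with CC at one end, GG at the other and an AT-rich centre. In the classical picture it has 2 sets of partners: the myocardin-related factors, which follow the state of the actin cytoskeleton and drive contractile and cytoskeletal genes, and the ternary complex factors ELK1, ELK3 and ELK4, which follow growth factor signalling and drive immediate early genes. In mesenchymal cells the first set is tied to smooth muscle and myofibroblast genes. ICA1L encodes a protein related to islet cell autoantigen 1, with an arfaptin homology domain, and is not a transcription factor.

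The 2 genes named in the construct were looked at first, because they check the labels. Reads of the native gene and of the construct cannot be separated in these counts. SRF (ENSG00000112658, chr6:43171299-43181507, plus strand, GRCh38) was at 274, 277 and 274 CPM in SRF-ICA1L and 1036, 1122 and 678 CPM in SRF. It was at 61.1, 64.4 and 57.3 CPM in pMSCV, so the SRF-ICA1L libraries lay between the vector libraries and the SRF libraries, with no overlap. SRF was therefore lower in SRF-ICA1L than in SRF (log2 fold change -1.70, SE 0.23, adjusted p 0.00157), and its call was kept in each fit without 1 library. ICA1L (ENSG00000163596, chr2:202773150-202871985, minus strand) was at 153, 119 and 134 CPM in SRF-ICA1L and 14.1, 11.2 and 11.2 CPM in SRF. Its level in pMSCV was 14.7, 12.8 and 13.1 CPM, so only the SRF-ICA1L libraries stood apart (log2 fold change 3.55, SE 0.16, adjusted p 5.97e-09). The paralogue ICA1 was at 1.505, 1.98 and 0.876 CPM in SRF-ICA1L and 2.34, 2.295 and 0.972 CPM in SRF, with overlapping groups and no call (adjusted p 0.876).

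Without the replicate number in the model, 145 genes differed between SRF-ICA1L and SRF at an adjusted p below 0.05 (0.782% of the 18544 tested): 118 were higher in SRF-ICA1L (0.636%) and 27 lower (0.146%). With the replicate number as a block, which removes what libraries of the same number share, 878 genes differed (4.73%): 586 higher (3.16%) and 292 lower (1.57%). All 145 genes were also called with the block, and 733 genes were called only with it. The p-values are edgeR's, from quasi-likelihood F tests adjusted over all 18544 genes by the method of Benjamini and Hochberg. They come from the fit without the block unless the block is named. The median log2 fold change over all tested genes was -0.018. Changes upward were the larger ones: 103 of the 118 higher genes had a log2 fold change of at least 1 and 43 of at least 3, while 12 of the 27 lower genes reached -1. The medians were 2.41 for the higher and -0.80 for the lower genes. Many higher genes were close to silent in SRF: 50 of the 118 had a mean below 1 CPM there, and 5 had a mean over 100 CPM. In each of the 145 the 3 SRF-ICA1L libraries lay on one side of the 3 SRF libraries, which over all tested genes held for 15.3%. Leaving out single libraries moved the count from 145 down to 60, 48 and 105 without SRF replicate 1, 2 and 3, and to 111, 60 and 83 without SRF-ICA1L replicate 1, 2 and 3. In all 6 of these fits 40 genes kept their call. With the block the count fell to 283 without SRF replicate 2, 368 without SRF-ICA1L replicate 2 and 352 without SRF-ICA1L replicate 3.

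**Figure D1:**
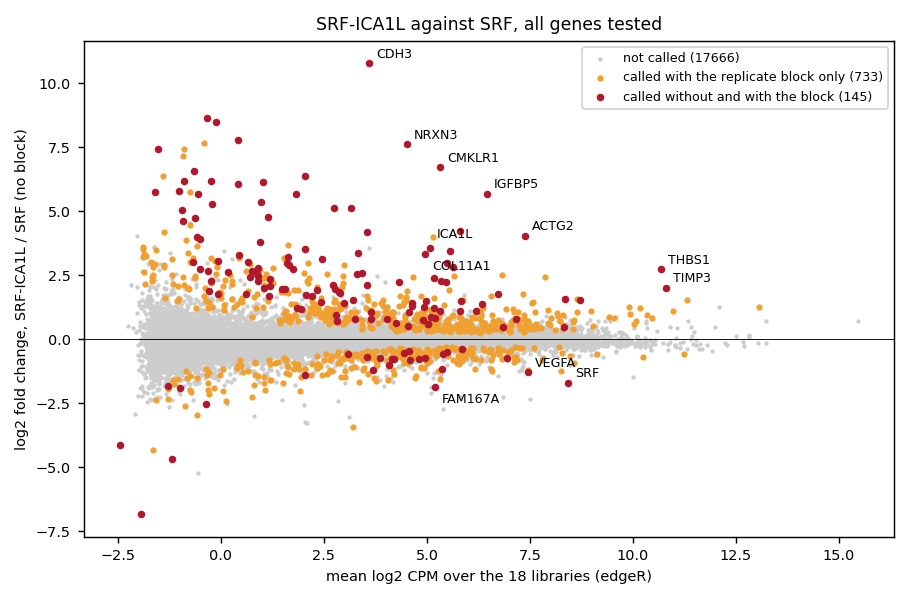
Log2 fold change of SRF-ICA1L over SRF (vertical axis, without the block) against edgeR's log2 CPM over the 18 libraries (horizontal axis). Each point is 1 of the 18544 genes tested. The 145 called without and with the block are in dark red, the 733 called only with it in orange, and the rest in grey. The called genes reach higher above 0 than below it at expressed levels, with CDH3 at 10.79 and, on the other side, FAM167A at -1.86 and SRF at -1.70.

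The limit on level used here was an edgeR log2 CPM of at least 1 over the 18 libraries. That value follows the mean CPM, so a few high libraries can meet it. Among genes that met it, the largest increases included adhesion proteins and receptors of the cell surface, such as CDH3, NRXN3 and CMKLR1. In bulk RNA, more cells with a transcript and more RNA per cell cannot be told apart. CDH3, which encodes P-cadherin, a calcium-dependent adhesion protein of epithelia, lies at chr16:68636189-68722616 and was at 16.5, 38.1 and 30.6 CPM in SRF-ICA1L and 0, 0.0383 and 0 CPM in SRF. With 1 count in all SRF libraries together, the ratio of the summed counts was 2360, with a 95% interval from 423 to 93200 that covers counting error only (adjusted p 0.000699, with the block 1.12e-08). It had 0 counts in all pMSCV libraries. The antisense gene CDH3-AS1 overlaps it and was also called higher, and since the use of strand in counting is not given, reads of the pair cannot be told apart. The same uncertainty holds for other named genes with an annotated antisense partner, among them IGFBP5, VEGFA, THBS1, TAGLN, KRT18 and LOX. NRXN3, a neurexin of synaptic contacts, was at 16.9, 49.4 and 30.7 CPM in SRF-ICA1L and 0.0742, 0.0765 and 0.347 CPM in SRF (log2 fold change 7.63, SE 1.23, adjusted p 0.00872). NRXN3 was no longer called in 2 of 6 leave-one-library-out fits (adjusted p up to 0.0773, without SRF replicate 2). TENM2, a teneurin, an adhesion protein that spans the membrane, was at 50.6, 124 and 112 CPM in SRF-ICA1L and 5.08, 4.63 and 6.53 CPM in SRF (log2 fold change 4.22, SE 0.75, adjusted p 0.0166). DSP encodes desmoplakin, which ties desmosomes to intermediate filaments, and was at 74.8, 179.9 and 105 CPM in SRF-ICA1L and 20.5, 7.57 and 7.05 CPM in SRF (log2 fold change 3.44, SE 0.63, adjusted p 0.0198). KRT17, an epithelial keratin with pseudogene copies that could take some of its reads, was at 7.05, 31.7 and 11.4 CPM in SRF-ICA1L and 0.297, 0.306 and 0.903 CPM in SRF (log2 fold change 5.14, SE 1.03, adjusted p 0.0326). CDH3 kept its call without any 1 library, whereas TENM2, DSP and KRT17 lost theirs in 4, 3 and 5 of the 6 such fits, with adjusted p up to 0.112 without SRF replicate 2, 0.121 without SRF replicate 2 and 0.176 without SRF replicate 2. For each of these 5 genes every SRF-ICA1L library exceeded every SRF library, which was a condition for naming them.

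CMKLR1, the receptor for the chemoattractant chemerin, was at 38.8, 104 and 70.6 CPM in SRF-ICA1L and 0.408, 0.8798 and 0.833 CPM in SRF. The difference (log2 fold change 6.74, SE 0.67, adjusted p 0.00036) was called in each fit without 1 library. That the lowest SRF-ICA1L library was over all SRF libraries was a condition for naming it. IGFBP5, a secreted protein that binds insulin-like growth factors (chr2:216672105-216695525), was at 216, 136 and 378 CPM in SRF-ICA1L and 7.01, 4.17 and 3.54 CPM in SRF (log2 fold change 5.69, SE 0.65, adjusted p 0.000944). Among the 3 SRF-ICA1L libraries replicate 3 was the highest and replicate 2 the lowest, and none came near the SRF range. ITIH3, a heavy chain of the inter-alpha-trypsin inhibitor family that binds hyaluronan, was at 5.504, 17.1 and 7.26 CPM in SRF-ICA1L and 0.0742, 0.268 and 0.0347 CPM in SRF (log2 fold change 6.39, SE 0.97, adjusted p 0.00524). EXTL1, a glycosyltransferase of the exostosin family that acts on heparan sulfate, was at 6.69, 7.33 and 4.05 CPM in SRF-ICA1L and 0.0742, 0.191 and 0 CPM in SRF (log2 fold change 6.14, SE 0.64, adjusted p 0.00036). Its 3 SRF libraries were at or near 0, as were those of ITIH3, and both genes kept their calls throughout. LMCD1, a LIM domain protein, was at 10.4, 56.5 and 21.9 CPM in SRF-ICA1L and 0.8901, 1.22 and 3.05 CPM in SRF (log2 fold change 4.20, SE 0.81, adjusted p 0.0261). AMZ1, a metallopeptidase, was at 3.29, 7.78 and 3.26 CPM in SRF-ICA1L and 0.0742, 0.2295 and 0.243 CPM in SRF (log2 fold change 4.77, SE 0.83, adjusted p 0.012). LMCD1 was no longer called in 4 of 6 leave-one-library-out fits (adjusted p up to 0.157, without SRF replicate 2). AMZ1 was no longer called in 3 of 6 leave-one-library-out fits (adjusted p up to 0.0763, without SRF replicate 1). RPE65, the retinoid isomerase of the visual cycle, was at 2.26, 9.31 and 4.63 CPM in SRF-ICA1L and 0.148, 0.0383 and 0.139 CPM in SRF (log2 fold change 5.66, SE 1.17, adjusted p 0.0485). RPE65 was no longer called in 5 of 6 leave-one-library-out fits (adjusted p up to 0.213, without SRF replicate 2).

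**Figure D2:**
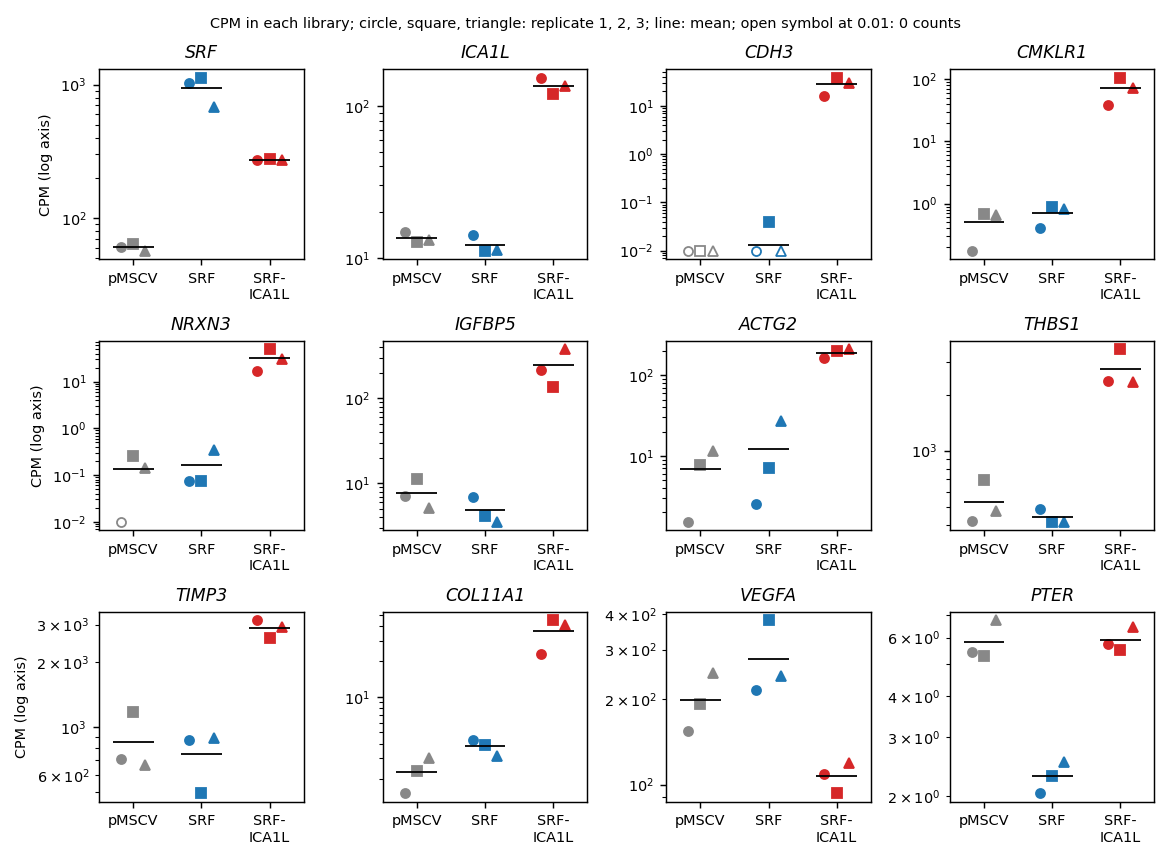
CPM on a log axis for 12 genes in the 3 libraries each of pMSCV (grey), SRF (blue) and SRF-ICA1L (red); circle, square and triangle are replicates 1, 2 and 3, the line is the group mean, and an open symbol at 0.01 is a library with 0 counts. For SRF and VEGFA the SRF-ICA1L libraries lie below the SRF libraries, for the other 10 genes above them, and for PTER the pMSCV and SRF-ICA1L libraries share a range that lies above SRF.

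Smooth muscle contractile genes, the classical targets of SRF with myocardin-related factors, were higher in part. Of 18 such genes 16 were tested. ACTG2 and CSRP1 rose without the block (2 of 16, beside 0.636% of all tested genes called higher). With the block 6 more rose (8 of 16, beside 3.16%), and none fell. The median log2 fold change of the 16 was 1.02 beside -0.018 over all tested genes, and in 8 of them the SRF-ICA1L libraries lay entirely above the SRF libraries, which held for 5.58% of all tested genes. ACTG2, the gamma actin of enteric smooth muscle (chr2:73892314-73919865), was at 165, 200.5 and 211 CPM in SRF-ICA1L and 2.52, 7.08 and 27.4 CPM in SRF (log2 fold change 4.04, SE 0.80, adjusted p 0.0297, with the block log2 fold change 4.38, SE 0.59, adjusted p 0.00124). The SRF libraries themselves differed widely. Without the block ACTG2 was no longer called in 5 of 6 leave-one-library-out fits (adjusted p up to 0.172, without SRF replicate 2). CSRP1, a LIM protein bound to actin bundles, was at 488, 818 and 661 CPM in SRF-ICA1L and 182, 264 and 284 CPM in SRF (log2 fold change 1.52, SE 0.33, adjusted p 0.0479). CSRP1 was no longer called in 5 of 6 leave-one-library-out fits (adjusted p up to 0.215, without SRF-ICA1L replicate 2). Counts of the actin genes ACTG2, ACTA2 and ACTC1 are uncertain to the extent that reads from their similar coding sequences were split between them.

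The 6 smooth muscle genes that rose only with the block were TAGLN, TPM1, CNN1, MYL9, CALD1 and SMTN. TAGLN, which encodes the actin-binding transgelin, was at 327, 740.5 and 668 CPM in SRF-ICA1L and 86.8, 191 and 336 CPM in SRF. For TAGLN the block gave a log2 fold change of 1.61 (SE 0.29, adjusted p 0.00573, without it 0.302). The groups overlapped, since SRF replicate 3 exceeded SRF-ICA1L replicate 1, while within each replicate number SRF-ICA1L was higher. Calponin 1 (CNN1) showed the same overlap, at 17.7, 50.04 and 43.2 CPM in SRF-ICA1L and 10.5, 17.5 and 25.5 CPM in SRF. For CNN1 the block gave a log2 fold change of 1.03 (SE 0.27, adjusted p 0.0415, without it 0.539). TPM1, a tropomyosin, did not overlap, at 997, 1961 and 1368 CPM in SRF-ICA1L and 661, 638 and 665 CPM in SRF. For TPM1 the block gave a log2 fold change of 1.14 (SE 0.22, adjusted p 0.00798, without it 0.136). MYL9, a regulatory myosin light chain, was at 417, 734 and 564 CPM in SRF-ICA1L and 214, 258 and 403 CPM in SRF. For MYL9 the block gave a log2 fold change of 1.01 (SE 0.20, adjusted p 0.00955, without it 0.223). ACTA2, the alpha actin of vascular smooth muscle, was at 66.7, 136 and 68.99 CPM in SRF-ICA1L and 43.99, 35.9 and 61.3 CPM in SRF and passed neither test (adjusted p 0.499 without and 0.314 with the block). Of the 6 fits with the block and without 1 library, calls were lost by CNN1 in 5 (up to 0.161, without SRF-ICA1L replicate 3) and TPM1 in 1 (up to 0.051, without SRF replicate 2), while TAGLN and MYL9 kept theirs. The outcome of these fits is not given for CALD1 and SMTN. MYH11, the smooth muscle myosin heavy chain, was low in both groups, at 0.752, 1.53 and 0.918 CPM in SRF-ICA1L and 0.705, 0.918 and 0.833 CPM in SRF, and passed neither test (adjusted p 0.902 and 0.857). MYOCD, the cofactor myocardin, was at 0.198, 2.29 and 0.167 CPM in SRF-ICA1L and 0.371, 3.67 and 1.08 CPM in SRF, where replicate 2 was the highest of both groups (adjusted p 0.88 and 0.414). The rest of SRF's cofactors did not pass either: of the 8 tested genes of that list SRF was the 1 called, with or without the block.

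Sequences upstream of a few of these genes are shown because the CArG box is where SRF binds DNA. RefSeq promoters (GRCh38.p14, 250 bases before to 50 after the start) were matched by symbol for 12138 of 18527 tested symbols and searched for the CArG box on both strands. It occurred in 1.65% of the tested promoters and 1.3% of all 34961 RefSeq promoters. Among the genes with a matched promoter called without the block it occurred in 3 of 90 higher genes (3.33%, ACTG2, RPE65 and ST6GAL2) and in 1 of 18 lower ones (5.56%, SRF itself). SRF is named in the construct, and native and construct reads cannot be separated, so its call cannot be read as a change at its own promoter. With the block the CArG box was found in 16 of 447 higher genes (3.58%) and 2 of 189 lower ones (1.06%), SRF among them. Capitals mark the box in the following upstream stretches, read 5′ to 3′ on the gene's strand.
ACTG2, chr2:73892868-73892974, plus strand: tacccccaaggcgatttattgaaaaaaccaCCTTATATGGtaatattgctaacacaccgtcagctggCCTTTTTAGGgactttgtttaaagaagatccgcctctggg
SMTN, chr22:31084922-31084991, plus strand: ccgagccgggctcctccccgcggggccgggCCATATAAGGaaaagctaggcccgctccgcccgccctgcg
EGR2, chr10:62816398-62816467, minus strand: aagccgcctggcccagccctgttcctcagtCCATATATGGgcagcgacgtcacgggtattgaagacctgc
SRF, chr6:43171209-43171268, plus strand: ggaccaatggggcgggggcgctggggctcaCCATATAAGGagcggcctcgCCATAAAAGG
ST6GAL2, chr2:106886882-106886951, minus strand: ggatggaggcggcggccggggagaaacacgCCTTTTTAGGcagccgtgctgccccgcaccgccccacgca
SMTN, the smooth muscle protein smoothelin, was called only with the block (log2 fold change without it 0.84, adjusted p 0.0111 with it), as was EGR2, whose values are given with the immediate early genes. ACTG2 and SRF carry the box at 2 places, the other 3 at 1. The box CCTTTTTAGG is shared by ACTG2 and ST6GAL2, and CCATATAAGG by SMTN and SRF. These letters describe the window; no binding was measured. The AP-1 motif TGANTCA was found in 7.6% of tested, 6.67% of higher and 5.56% of lower promoters without the block. The TEAD motif GGAATG was found in 15.3%, 15.6% and 27.8% (5 of 18 for the lower genes). With the block TGANTCA was found in 7.61% of higher and 12.2% of lower promoters, and GGAATG in 18.6% and 13.2%, so for the lower genes both motifs lay on the other side of the share of all tested promoters.

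Of 33 actin cytoskeleton and focal adhesion genes, WDR1 rose without the block (1 of 33, beside 0.636% of all tested genes called higher), MYH10 and LIMA1 rose with it (3 of 33 with WDR1, beside 3.16%), and none fell. Their median log2 fold change was 0.37, and 14 of the 33 had all SRF-ICA1L libraries above all SRF libraries, beside 5.58% of all genes. WDR1, a cofactor of actin filament disassembly, was at 359, 305 and 341 CPM in SRF-ICA1L and 243, 246 and 270.2 CPM in SRF (log2 fold change 0.48, SE 0.10, adjusted p 0.0293). WDR1 was no longer called in 5 of 6 leave-one-library-out fits (adjusted p up to 0.157, without SRF replicate 2). MYH10, a non-muscle myosin heavy chain, was at 155, 166 and 209 CPM in SRF-ICA1L and 114, 82.4 and 72.1 CPM in SRF. For MYH10 the block gave a log2 fold change of 1.04 (SE 0.28, adjusted p 0.046, without it 0.0866). LIMA1, an actin-bundling LIM protein, was at 306, 308 and 345 CPM in SRF-ICA1L and 263, 259 and 259 CPM in SRF. For LIMA1 the block gave a log2 fold change of 0.37 (SE 0.087, adjusted p 0.0218, without it 0.0886). With the block and without 1 library, calls were lost by MYH10 in 5 (up to 0.208, without SRF replicate 2), LIMA1 in 4 (up to 0.147, without SRF replicate 2) and WDR1 in 2 (up to 0.0785, without SRF replicate 2) of 6 fits. VCL, the focal adhesion protein vinculin, was at 508, 658 and 704 CPM in SRF-ICA1L and 403, 449.8 and 361 CPM in SRF and did not pass with or without the block (adjusted p 0.0852 and 0.331). Among 24 striated muscle genes 11 passed the filter, which ran over all 18 libraries, and were tested. Some of these were near 0 in the 6 compared libraries, such as XIRP1 at 0.158 CPM or less. LDB3, a Z-disc protein, was the 1 of the 11 that rose with the block (beside 3.16% of all tested genes called higher). It was at 2.02, 7.29 and 3.46 CPM in SRF-ICA1L and 0.371, 0.689 and 1.53 CPM in SRF. For LDB3 the block gave a log2 fold change of 2.21 (SE 0.56, adjusted p 0.0398, without it 0.333). Its call was lost in 5 of 6 fits with the block (up to 0.194, without SRF replicate 2). ACTC1, cardiac actin, was at 0.198, 0.625 and 1.002 CPM in SRF-ICA1L and 0.0742, 0 and 0.0694 CPM in SRF and passed neither test (adjusted p 0.629 and 0.166).

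Some of the immediate early genes, the classical targets of SRF with ternary complex factors, were called by edgeR, and only with the block. Of 21 tested, edgeR called 0 without it (3 were at an unadjusted p under 0.05, and DESeq2 called 1), and with it EGR2 and IER5 rose while FOSL1 and NR4A2 fell, 4 of 21 beside 4.73% of all tested genes. Their median log2 fold change was -0.41. Levels of FOS and EGR1 followed the replicate number in both groups. FOS, a subunit of the AP-1 factor, was at 836, 34.4 and 427 CPM in SRF-ICA1L and 1114, 24.7 and 631 CPM in SRF, so replicate 2 was low in both (adjusted p 0.958, with the block 0.936). EGR1, a zinc finger factor, was at 913, 224 and 463 CPM in SRF-ICA1L and 994, 113 and 418 CPM in SRF (adjusted p 0.982, with the block 0.481), again with replicate 2 lowest. The direction of FOS and EGR1 reversed when single libraries were left out, among them SRF replicate 1 for FOS (0.45) and SRF replicate 2 for EGR1 (-0.36). EGR2, a related zinc finger factor, stood apart from both, at 79.6, 41.4 and 46.9 CPM in SRF-ICA1L and 19.2, 3.98 and 9.44 CPM in SRF: the 3 SRF-ICA1L libraries were over all SRF libraries. For EGR2 the block gave a log2 fold change of 2.59 (SE 0.23, adjusted p 2.61e-05, without it 0.0784). NR4A2, a nuclear receptor, was at 66.4, 4.38 and 5.97 CPM in SRF-ICA1L and 197, 17.2 and 20.2 CPM in SRF and was high in replicate 1 of both groups. For NR4A2 the block gave a log2 fold change of -1.66 (SE 0.33, adjusted p 0.0123, without it 0.746). FOSL1, another AP-1 subunit, was at 14.7, 6.22 and 13.7 CPM in SRF-ICA1L and 18.6, 14.8 and 23.7 CPM in SRF. For FOSL1 the block gave a log2 fold change of -0.71 (SE 0.19, adjusted p 0.0456, without it 0.506). IER5 was at 62.8, 72.4 and 97.7 CPM in SRF-ICA1L and 39.5, 48.7 and 72.5 CPM in SRF. For IER5 the block gave a log2 fold change of 0.63 (SE 0.11, adjusted p 0.00293, without it 0.397). EGR2 and IER5 kept their calls in the 6 fits with the block and without 1 library; calls were lost by FOSL1 in 5 (up to 0.202, without SRF-ICA1L replicate 2) and NR4A2 in 3 (up to 0.0698, without SRF replicate 2).

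Several extracellular matrix genes rose, the abundant ones mostly with the block. COL11A1, a fibrillar collagen of cartilage, was the 1 collagen of 24 called without the block, at 23.2, 44.6 and 40.7 CPM in SRF-ICA1L and 4.34, 3.902 and 3.16 CPM in SRF (log2 fold change 3.33, SE 0.48, adjusted p 0.00409), and it kept its call without any 1 library. With the block 6 more collagens rose (COL1A1, COL4A1, COL5A1, COL5A2, COL5A3 and COL8A2) and none fell. The shares of all tested genes called higher were 0.636% without and 3.16% with the block. The median log2 fold change of the 24 was 0.38. COL1A1, the main chain of type I collagen, was at 8266, 20593 and 13200 CPM in SRF-ICA1L and 6504, 5921 and 6085 CPM in SRF. For COL1A1 the block gave a log2 fold change of 1.16 (SE 0.26, adjusted p 0.0187, without it 0.117). COL5A1, which nucleates collagen fibrils, was at 762, 2102 and 1330.5 CPM in SRF-ICA1L and 616, 816 and 456 CPM in SRF. For COL5A1 the block gave a log2 fold change of 1.13 (SE 0.27, adjusted p 0.0272, without it 0.292). SRF-ICA1L replicate 1 of COL5A1 lay within the SRF range. COL5A3 was at 94.7, 336 and 221 CPM in SRF-ICA1L and 30.9, 23.2 and 67.6 CPM in SRF. For COL5A3 the block gave a log2 fold change of 2.40 (SE 0.54, adjusted p 0.0249, without it 0.173). In all 3 collagens SRF-ICA1L replicate 2 was the highest of the 6 libraries, as it was for FN1. Of the 6 such fits without 1 library, calls were lost by COL1A1 in 3 (up to 0.131, without SRF replicate 2), COL5A1 in 4 (up to 0.152, without SRF replicate 2), COL5A3 in 3 (up to 0.122, without SRF replicate 2) and COL8A2 in 4 (up to 0.245, without SRF replicate 2), the values being adjusted p. The outcome of these fits is not given for COL4A1 and COL5A2.

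Of 26 other matrix genes tested, THBS1 and MFAP4 rose without the block (2 of 26, beside 0.636% of all tested genes called higher). SPARC, VCAN, LOX and BGN rose only with it (6 of 26 with those 2, beside 3.16%). The median of the 26 was 0.60, and none fell. THBS1, which encodes the matricellular protein thrombospondin 1 (chr15:39581079-39599466), was at 2366, 3518 and 2333 CPM in SRF-ICA1L and 487, 415 and 414 CPM in SRF (log2 fold change 2.73, SE 0.45, adjusted p 0.00843). The SRF libraries sat close together and close to pMSCV (416, 695 and 474 CPM). THBS1 was no longer called in 2 of 6 leave-one-library-out fits (adjusted p up to 0.0628, without SRF replicate 2). MFAP4, a microfibril-associated protein, was at 116, 132 and 114 CPM in SRF-ICA1L and 66.9, 53.5 and 57.7 CPM in SRF (log2 fold change 1.11, SE 0.22, adjusted p 0.0273). MFAP4 was no longer called in 6 of 6 leave-one-library-out fits (adjusted p up to 0.141, without SRF replicate 2). SPARC, a collagen-binding glycoprotein, was at 1819.6, 7917 and 4568 CPM in SRF-ICA1L and 1374, 1818 and 2172 CPM in SRF. For SPARC the block gave a log2 fold change of 1.28 (SE 0.29, adjusted p 0.0187, without it 0.252). LOX, which cross-links collagen, was at 195, 279.6 and 222 CPM in SRF-ICA1L and 133, 143 and 108 CPM in SRF. For LOX the block gave a log2 fold change of 0.91 (SE 0.18, adjusted p 0.00846, without it 0.204). VCAN, the proteoglycan versican, was at 852, 1938 and 1343 CPM in SRF-ICA1L and 602, 1212 and 466 CPM in SRF. For VCAN the block gave a log2 fold change of 0.95 (SE 0.20, adjusted p 0.0121, without it 0.354). BGN, biglycan, was at 1171, 2039.95 and 1290.5 CPM in SRF-ICA1L and 899.9, 1073 and 920.2 CPM in SRF. For BGN the block gave a log2 fold change of 0.68 (SE 0.15, adjusted p 0.0187, without it 0.237). LOX and BGN did not overlap between the groups, whereas SPARC and VCAN did. Of the 6 fits with the block and without 1 library, calls were lost by SPARC in 3 (up to 0.117, without SRF replicate 2), BGN in 3 (up to 0.133, without SRF replicate 2), VCAN in 2 (up to 0.0675, without SRF-ICA1L replicate 2) and LOX in 1 (up to 0.0698, without SRF replicate 2).

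TIMP3, an inhibitor of matrix metalloproteinases that is held in the matrix, was at 3133, 2598 and 2912 CPM in SRF-ICA1L and 873, 494 and 888 CPM in SRF (log2 fold change 2.01, SE 0.30, adjusted p 0.0032) and kept its call without any 1 library. It was the 1 gene of 16 TIMPs and matrix metalloproteinases called without the block, and with the block MMP19 fell, at 17.6, 21.1 and 16.6 CPM in SRF-ICA1L and 32.2, 30.5 and 31.97 CPM in SRF. For MMP19 the block gave a log2 fold change of -0.70 (SE 0.18, adjusted p 0.0354, without it 0.0872). The median of those 16 was -0.20. Beside this and the next 3 lists stand the shares of all tested genes. Without the block 0.636% were called higher and 0.146% lower, and with it 3.16% and 1.57%. In the insulin-like growth factor system, 2 binding proteins of 7 genes tested rose without the block. IGFBP5 is given above, and IGFBP3, the main carrier in serum, was at 109.6, 69.04 and 151 CPM in SRF-ICA1L and 14.5, 14.5 and 19.5 CPM in SRF (log2 fold change 2.83, SE 0.47, adjusted p 0.0103). IGFBP3 was no longer called in 2 of 6 leave-one-library-out fits (adjusted p up to 0.079, without SRF replicate 2). IGFBP7 rose with the block alone, at 317, 599 and 414 CPM in SRF-ICA1L and 253, 355 and 361 CPM in SRF. For IGFBP7 the block gave a log2 fold change of 0.49 (SE 0.13, adjusted p 0.0456, without it 0.58). IGF1, IGF2, IGFBP1 and IGFBP2 were too low to be tested. Of 15 integrins tested edgeR called 0 without the block (4 were at an unadjusted p under 0.05, and DESeq2 called 0); with it ITGA7, a laminin receptor chain of muscle, and ITGA4 rose, and ITGB8, which activates TGF-beta, fell. ITGA7 was at 45.6, 90.6 and 47.1 CPM in SRF-ICA1L and 27.3, 35.8 and 14.3 CPM in SRF. For ITGA7 the block gave a log2 fold change of 1.31 (SE 0.28, adjusted p 0.0173, without it 0.302). ITGA4 was at 67.6, 108 and 101 CPM in SRF-ICA1L and 48.1, 64.6 and 57.04 CPM in SRF. For ITGA4 the block gave a log2 fold change of 0.76 (SE 0.17, adjusted p 0.0173, without it 0.331). ITGB8 was at 14.6, 13.9 and 17.4 CPM in SRF-ICA1L and 26.2, 22.1 and 22.7 CPM in SRF. For ITGB8 the block gave a log2 fold change of -0.57 (SE 0.14, adjusted p 0.0323, without it 0.244). Of 15 targets of TGF-beta and of YAP with TEAD factors, ANKRD1, an ankyrin repeat protein of stretched muscle, was the 1 that rose, with the block only. With the block and without 1 library, calls were lost by MMP19 in 5 (up to 0.186, without SRF-ICA1L replicate 3), IGFBP7 in 5 (up to 0.239, without SRF replicate 2), ITGB8 in 5 (up to 0.146, without SRF-ICA1L replicate 3), ITGA7 in 4 (up to 0.103, without SRF replicate 2) and ITGA4 in 3 (up to 0.0902, without SRF replicate 2) of 6 fits, while ANKRD1 kept its call in all 6. ANKRD1 was at 34.7, 75.7 and 32.01 CPM in SRF-ICA1L and 0.668, 3.25 and 5.66 CPM in SRF. For ANKRD1 the block gave a log2 fold change of 4.11 (SE 0.59, adjusted p 0.00188, without it 0.151). Its groups did not overlap.

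**Figure D3:**
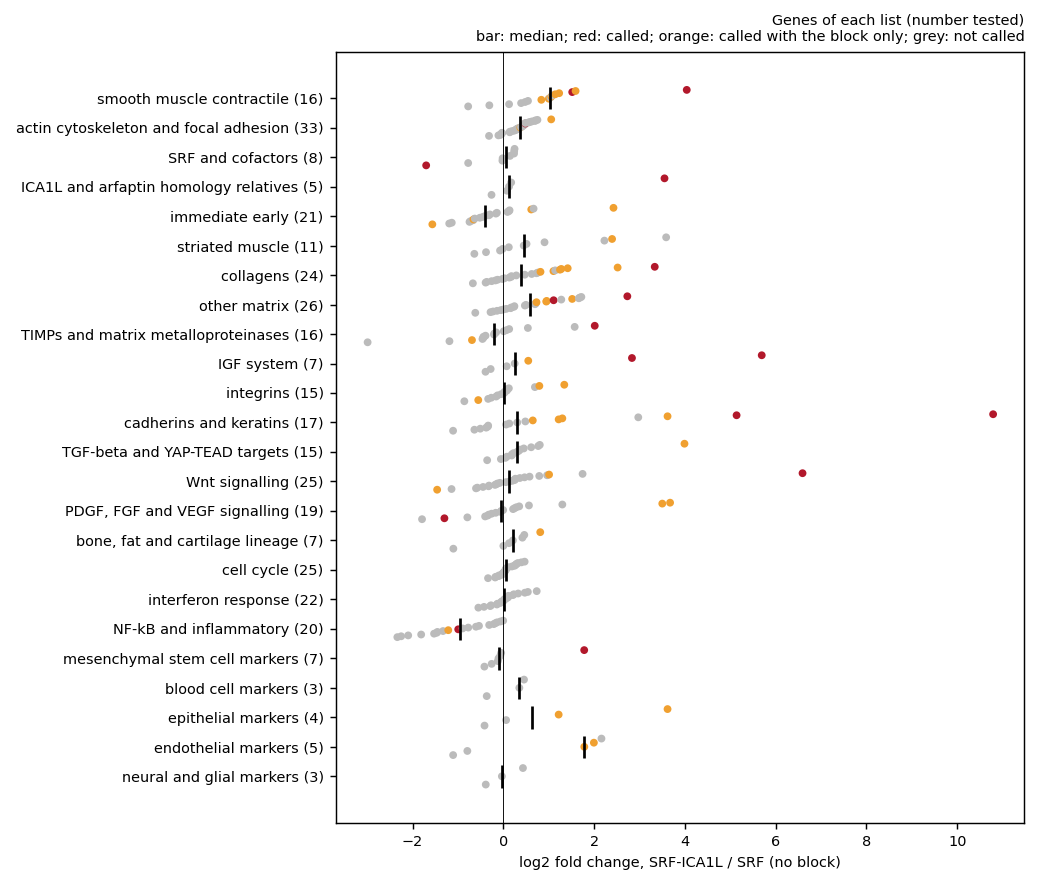
Log2 fold change of SRF-ICA1L over SRF without the block (horizontal axis) for each tested gene of 24 lists (rows, number tested in brackets); dark red genes were called without the block, orange ones only with it, grey ones not, and the vertical bar is the list's median. The smooth muscle list has a median of 1.02, the NF-kB list one of -0.95, and the cell cycle list one of 0.051.

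Of 17 cadherins and keratins tested, CDH3 and KRT17 rose without the block (2 of 17, beside 0.636% of all tested genes called higher). CDH1, CDH11, KRT18 and KRT80 rose only with it (6 of 17 with those 2, beside 3.16%), and none fell. CDH1, epithelial E-cadherin, stayed below 0.5 CPM in both groups, at 0.396, 0.313 and 0.292 CPM in SRF-ICA1L and 0, 0 and 0.0694 CPM in SRF. With 2 counts in all SRF libraries together, the ratio of its summed counts was 13.7 (95% interval 3.42 to 119, counting error only, adjusted p 0.049 with and 0.188 without the block). CDH11, a cadherin of mesenchyme, was at 263, 323 and 300.01 CPM in SRF-ICA1L and 199, 211 and 189 CPM in SRF. For CDH11 the block gave a log2 fold change of 0.64 (SE 0.13, adjusted p 0.0125, without it 0.13). KRT18 was at 63.4, 191 and 133 CPM in SRF-ICA1L and 24.3, 60.7 and 93.2 CPM in SRF. For KRT18 the block gave a log2 fold change of 1.22 (SE 0.21, adjusted p 0.00332, without it 0.445). KRT80 was at 1.19, 11.5 and 9.56 CPM in SRF-ICA1L and 0.705, 5.28 and 3.71 CPM in SRF. For KRT80 the block gave a log2 fold change of 1.24 (SE 0.31, adjusted p 0.0343, without it 0.713). Both keratins overlapped between the groups and were lowest in replicate 1 of each. With the block and without 1 library, calls were lost by CDH1 in 5 (up to 0.265, without SRF replicate 2), KRT80 in 5 (up to 0.193, without SRF replicate 2) and CDH11 in 3 (up to 0.0917, without SRF replicate 2) of 6 fits, and KRT18 kept its call. Among the other epithelial markers EPCAM was at 0.119 to 0.209 CPM in SRF-ICA1L and 0.191 to 0.451 CPM in SRF, and KRT19 was at 0.268 CPM or less in each of these 6 libraries. The 6 epithelial markers summed to 102 to 234 CPM in SRF-ICA1L and 55.3 to 148 CPM in SRF, most of it KRT18. The 5 endothelial markers summed to 131 to 393 CPM in SRF-ICA1L and 89.6 to 115 CPM in SRF, most of it TEK, the angiopoietin receptor, which rose with the block, at 116, 381 and 261 CPM in SRF-ICA1L and 72.3, 83.2 and 79.7 CPM in SRF. For TEK the block gave a log2 fold change of 1.59 (SE 0.27, adjusted p 0.00379, without it 0.124). VWF, von Willebrand factor, rose with the block too but stayed low, at 0.436, 1.04 and 1.46 CPM in SRF-ICA1L and 0.0742, 0.383 and 0.312 CPM in SRF. For VWF the block gave a log2 fold change of 2.06 (SE 0.501, adjusted p 0.0271, without it 0.348). TEK kept its call in the 6 fits with the block and without 1 library, and VWF lost it in 5 (up to 0.162, without SRF-ICA1L replicate 3). PECAM1, CDH5 and KDR passed neither test. PECAM1, an adhesion protein of endothelial junctions, was lower in each SRF-ICA1L library, at 11.6, 9.76 and 5.18 CPM in SRF-ICA1L and 14.8, 27.96 and 18.2 CPM in SRF (log2 fold change -1.11, adjusted p 0.242). KDR, a receptor of VEGF, had a log2 fold change of -0.79 (adjusted p 0.487) and CDH5, the cadherin of endothelium, one of 2.16 (adjusted p 0.256). The part of other cell types in these results was not tested. Of the mesenchymal markers THY1, a surface glycoprotein, rose, at 152, 239 and 201 CPM in SRF-ICA1L and 63.01, 36.8 and 82.4 CPM in SRF (log2 fold change 1.78, SE 0.29, adjusted p 0.00843), and kept its call without any 1 library, while the other 6 were not called with or without the block.

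In Wnt signalling, ROR2, a receptor tyrosine kinase for WNT5A, was at 3.41, 2.36 and 2.25 CPM in SRF-ICA1L and 0.0742, 0 and 0 CPM in SRF. With 2 counts in all SRF libraries together, the ratio of summed counts was 109 (95% interval 29.9 to 908, counting error only; adjusted p 0.00135, with the block 0.000219). It was the 1 gene of 25 tested in that list called without the block; with it FZD7, a Wnt receptor, rose and SFRP2, a secreted Wnt-binding protein, fell. FZD7 was at 53.7, 51.1 and 42.7 CPM in SRF-ICA1L and 32.2, 23.7 and 21.7 CPM in SRF. For FZD7 the block gave a log2 fold change of 0.99 (SE 0.22, adjusted p 0.0196, without it 0.116). The list's median was 0.13. Of all tested genes 0.636% were called higher and 0.146% lower without the block, and 3.16% and 1.57% with it. Among 19 PDGF, FGF and VEGF genes VEGFA, the main angiogenic growth factor (chr6:43770184-43786487), fell, at 109, 93.3 and 119.6 CPM in SRF-ICA1L and 215, 381 and 241 CPM in SRF (log2 fold change -1.30, SE 0.21, adjusted p 0.00807). All SRF-ICA1L libraries lay below all SRF libraries and below the pMSCV range (155, 192 and 249 CPM); the call was lost only without SRF-ICA1L replicate 2 (adjusted p 0.0525). With the block PDGFB, a ligand of PDGFRB, rose from near 0, at 0.515, 0.695 and 1.17 CPM in SRF-ICA1L and 0, 0.0383 and 0.139 CPM in SRF. For PDGFB the block gave a log2 fold change of 3.75 (SE 0.85, adjusted p 0.0196, without it 0.198). FLT1, a VEGFA receptor, rose likewise, at 0.554, 1.22 and 0.292 CPM in SRF-ICA1L and 0.0742, 0.115 and 0 CPM in SRF. For FLT1 the block gave a log2 fold change of 3.47 (SE 0.80, adjusted p 0.0209, without it 0.136). With the block and without 1 library, calls were lost by FZD7 in 4 (up to 0.117, without SRF replicate 2) and FLT1 in 4 (up to 0.158, without SRF replicate 2) of 6 fits.

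Lower genes were fewer and their changes smaller. FAM167A was at 19.996, 13.1 and 11.8 CPM in SRF-ICA1L and 35.6, 94.4 and 42.5 CPM in SRF (log2 fold change -1.86, SE 0.35, adjusted p 0.0234). The gene of carboxypeptidase M, whose symbol is also CPM, was at 2.14, 2.95 and 2.796 CPM in SRF-ICA1L and 7.23, 7.42 and 7.67 CPM in SRF (log2 fold change -1.42, SE 0.26, adjusted p 0.0162). It overlaps the antisense gene MDM2. PTN, the heparin-binding growth factor pleiotrophin, was at 11.3, 5.35 and 8.81 CPM in SRF-ICA1L and 22.7, 12.4 and 25.9 CPM in SRF (log2 fold change -1.20, SE 0.25, adjusted p 0.0364). SGIP1, an adaptor of endocytosis, was at 26.4, 19.9 and 17.7 CPM in SRF-ICA1L and 62.2, 56.4 and 32.9 CPM in SRF (log2 fold change -1.16, SE 0.23, adjusted p 0.0225). BIRC3, an inhibitor of apoptosis and a target of NF-kB, was at 12.6, 7.64 and 8.39 CPM in SRF-ICA1L and 21.9, 19.5 and 18.8 CPM in SRF (log2 fold change -0.99, SE 0.20, adjusted p 0.0326). GSTM2, a glutathione transferase that overlaps its paralogues GSTM1 and GSTM4, was at 13.9, 14.1 and 14.4 CPM in SRF-ICA1L and 29.5, 22.03 and 24.995 CPM in SRF (log2 fold change -0.78, SE 0.16, adjusted p 0.0293). TNFRSF14, a receptor of the tumour necrosis factor family, was at 14.4, 12.5 and 15.4 CPM in SRF-ICA1L and 26.2, 20.5 and 29.1 CPM in SRF (log2 fold change -0.76, SE 0.16, adjusted p 0.038). MIRLET7IHG, the host gene of let-7i, was at 13.9, 17.9 and 20.3 CPM in SRF-ICA1L and 30.5, 35.4 and 30.03 CPM in SRF (log2 fold change -0.80, SE 0.15, adjusted p 0.0181). Each of these 8 lost its call in 3 to 5 of the 6 fits without 1 library, with adjusted p up to 0.123 without SRF-ICA1L replicate 2 for FAM167A, 0.172 without SRF-ICA1L replicate 2 for PTN, 0.11 without SRF-ICA1L replicate 3 for SGIP1, 0.179 without SRF-ICA1L replicate 2 for BIRC3, 0.12 without SRF replicate 1 for GSTM2, 0.18 without SRF-ICA1L replicate 2 for TNFRSF14, 0.097 without SRF replicate 2 for MIRLET7IHG and 0.066 without SRF-ICA1L replicate 1 for carboxypeptidase M.

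NF-kB and inflammatory genes had the lowest median of the lists, at -0.95. All 20 had a fitted log2 fold change below 0, the one nearest to 0 being VCAM1, and 9 of the 20 had all SRF-ICA1L libraries below all SRF libraries, beside 9.77% of all tested genes. BIRC3 was called lower without the block (1 of 20, beside 0.146% of all tested genes called lower). IL1A was called lower only with it (2 of 20 with BIRC3, beside 1.57%). IL1A, the cytokine interleukin 1 alpha, was at 12.2, 7.68 and 7.43 CPM in SRF-ICA1L and 21.7, 15.99 and 28.9 CPM in SRF. For IL1A the block gave a log2 fold change of -1.19 (SE 0.31, adjusted p 0.0404, without it 0.166). Its call was lost in each of the 6 fits with the block and without 1 library (up to 0.194, without SRF-ICA1L replicate 3). The other members did not pass. CXCL8 and SOD2, picked after their values were seen, show this: the neutrophil chemokine CXCL8 was at 98.5, 37.7 and 7.85 CPM in SRF-ICA1L and 237, 337 and 196 CPM in SRF (adjusted p 0.394, with the block 0.275), and mitochondrial superoxide dismutase SOD2 at 1091, 511 and 144 CPM against 2622, 1718 and 758 CPM (adjusted p 0.51, with the block 0.254). The sum of the list was 609 to 2041 CPM in SRF-ICA1L and 2129 to 4125 CPM in SRF, and 947 to 3977 CPM in pMSCV, a range that overlaps both groups.

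Cell cycle and interferon genes were not called by edgeR in either fit: 0 of 25 and 0 of 22, of which 0 and 1 were at an unadjusted p under 0.05 without the block, and DESeq2 called 0 of each. Their median log2 fold changes were 0.051 and 0.025. MKI67, the proliferation marker Ki-67, was at 43.7, 53.5 and 181 CPM in SRF-ICA1L and 40.02, 58.9 and 111 CPM in SRF, with replicate 3 highest in both groups (adjusted p 0.844, with the block 0.525). IFI27, an interferon-induced gene, was at 8.95, 12.8 and 6.43 CPM in SRF-ICA1L and 4.93, 2.26 and 10.8 CPM in SRF (adjusted p 0.74, with the block 0.569). Among 7 bone, fat and cartilage genes tested, SOX9, the chondrocyte regulator, rose with the block (1 of 7, beside 3.16% of all tested genes called higher). It was at 22.6, 25.7 and 30.8 CPM in SRF-ICA1L and 13.1, 14.4 and 20.2 CPM in SRF. For SOX9 the block gave a log2 fold change of 0.81 (SE 0.17, adjusted p 0.0142, without it 0.112). Without SRF replicate 2 its adjusted p with the block was 0.106. ALPL, alkaline phosphatase of bone, was at 4.91, 2.81 and 3.13 CPM in SRF-ICA1L and 6.45, 1.84 and 16.2 CPM in SRF (adjusted p 0.54, with the block 0.445).

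Among the genes called only with the block, 468 were higher, with a median log2 fold change of 0.90, and 265 lower, with one of -0.77. The largest of them were sought among genes whose groups did not overlap and whose edgeR log2 CPM over all 18 libraries was at least 1. The largest higher ones, besides ANKRD1 and PDGFB, were B3GALT2, SYT12, PKNOX2 and CPA4. PDGFB met the limit on level through other fusions, among them SRF-FOXO1 at 5.64, 22.8 and 10.4 CPM. In the 6 compared libraries it was at 1.17 CPM or less. Other fusions also counted toward the limit for other named genes, such as RPE65, at 1.11, 17.5 and 6.2 CPM in SRF-FOXO1. B3GALT2, a galactosyltransferase that overlaps the antisense gene CDC73, was at 5.8997, 3.195 and 9.31 CPM in SRF-ICA1L and 0.297, 0.421 and 1.35 CPM in SRF. For B3GALT2 the block gave a log2 fold change of 3.31 (SE 0.62, adjusted p 0.00798, without it 0.0634). SYT12, a synaptotagmin, was at 9.46, 15.5 and 5.05 CPM in SRF-ICA1L and 1.82, 1.301 and 0.972 CPM in SRF. For SYT12 the block gave a log2 fold change of 2.82 (SE 0.502, adjusted p 0.00549, without it 0.0602). PKNOX2, a homeobox factor, was at 2.38, 6.88 and 5.34 CPM in SRF-ICA1L and 0.519, 0.918 and 0.833 CPM in SRF. For PKNOX2 the block gave a log2 fold change of 2.73 (SE 0.30, adjusted p 0.000136, without it 0.12). CPA4, a carboxypeptidase, was at 65.5, 78.9 and 208 CPM in SRF-ICA1L and 4.34, 18.9 and 43.5 CPM in SRF. For CPA4 the block gave a log2 fold change of 2.69 (SE 0.33, adjusted p 0.000425, without it 0.193). Its replicate 1 was the lowest and replicate 3 the highest in both groups.

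Within the same limits on overlap and level, the largest lower ones called only with the block were ANGPTL4, SGPP2, ENPP2, CLDN11, EPHA7 and SFRP2. ANGPTL4, an inhibitor of lipoprotein lipase, was at 1.47, 0.278 and 0.876 CPM in SRF-ICA1L and 2.97, 3.67 and 2.33 CPM in SRF. For ANGPTL4 the block gave a log2 fold change of -2.07 (SE 0.56, adjusted p 0.0496, without it 0.471). SGPP2, a phosphatase of sphingosine 1-phosphate, was at 1.27, 0.938 and 1.503 CPM in SRF-ICA1L and 4.27, 5.32 and 6.28 CPM in SRF. For SGPP2 the block gave a log2 fold change of -2.05 (SE 0.38, adjusted p 0.0061, without it 0.102). ENPP2, the lysophospholipase autotaxin, was at 32.9, 5.31 and 11.1 CPM in SRF-ICA1L and 69.1, 34.4 and 33.9 CPM in SRF. For ENPP2 the block gave a log2 fold change of -1.67 (SE 0.24, adjusted p 0.00134, without it 0.444). CLDN11, a claudin of tight junctions, was at 6.61, 1.84 and 6.55 CPM in SRF-ICA1L and 17.99, 7.27 and 23.95 CPM in SRF. For CLDN11 the block gave a log2 fold change of -1.66 (SE 0.33, adjusted p 0.00979, without it 0.308). EPHA7, an ephrin receptor, was at 4.63, 1.91 and 5.13 CPM in SRF-ICA1L and 11.9, 10.9 and 10.7 CPM in SRF. For EPHA7 the block gave a log2 fold change of -1.61 (SE 0.34, adjusted p 0.0139, without it 0.304). SFRP2 was at 2.14, 0.625 and 1.88 CPM in SRF-ICA1L and 4.896, 3.83 and 4.55 CPM in SRF. For SFRP2 the block gave a log2 fold change of -1.60 (SE 0.41, adjusted p 0.0372, without it 0.371). In each of these 6 genes SRF-ICA1L replicate 2 was the lowest of the 6 libraries. Of the 6 fits with the block and without 1 library, calls were lost by ANGPTL4 in 5 (up to 0.178, without SRF replicate 2), SFRP2 in 4 (up to 0.172, without SRF replicate 2), EPHA7 in 3 (up to 0.081, without SRF replicate 2), CLDN11 in 2 (up to 0.0572, without SRF-ICA1L replicate 2), SGPP2 in 1 (up to 0.0514, without SRF-ICA1L replicate 3), PDGFB in 2 (up to 0.131, without SRF replicate 2) and B3GALT2 in 1 (up to 0.0631, without SRF replicate 2), the values being adjusted p. ANKRD1, SYT12, PKNOX2, CPA4 and ENPP2 kept theirs in all 6.

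Among the called genes outside the lists, the following were picked after their values were seen, from those that kept their call in each fit without 1 library. BTG2, an antiproliferative gene, was at 10.7, 10.7 and 7.68 CPM in SRF-ICA1L and 3.301, 2.22 and 2.604 CPM in SRF (log2 fold change 1.92, SE 0.23, adjusted p 0.000883). DUSP2, a phosphatase of MAP kinases, was at 6.61, 5.24 and 7.26 CPM in SRF-ICA1L and 0.223, 0 and 0.243 CPM in SRF (log2 fold change 5.37, SE 0.66, adjusted p 0.000967). PTPN7, a tyrosine phosphatase known from blood cells, was at 1.86, 3.89 and 4.55 CPM in SRF-ICA1L and 0.0371, 0.0383 and 0.0694 CPM in SRF (log2 fold change 6.08, SE 0.79, adjusted p 0.00155). PLN, phospholamban, the inhibitor of the calcium pump of cardiac and smooth muscle, was at 4.83, 4.65 and 3.17 CPM in SRF-ICA1L and 0.111, 0.344 and 0.486 CPM in SRF (log2 fold change 3.81, SE 0.501, adjusted p 0.00155). LFNG, a glycosyltransferase that modifies Notch, was at 6.89, 14.8 and 17.5 CPM in SRF-ICA1L and 0.705, 1.91 and 2.05 CPM in SRF (log2 fold change 3.15, SE 0.51, adjusted p 0.00758). All 5 were at or under 3.301 CPM in SRF and higher in each SRF-ICA1L library.

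Further genes of this kind, likewise picked after their values were seen, were ENC1, an actin-binding protein, at 95.9, 100.1 and 77.2 CPM in SRF-ICA1L and 33.7, 30.1 and 38.6 CPM in SRF (log2 fold change 1.498, SE 0.20, adjusted p 0.00157). NES, the intermediate filament nestin, was at 34.5, 24.7 and 25.6 CPM in SRF-ICA1L and 13.3, 7.69 and 14.9 CPM in SRF (log2 fold change 1.31, SE 0.22, adjusted p 0.00882). BMPER, a secreted binder of bone morphogenetic proteins, was at 4.95, 4.55 and 5.22 CPM in SRF-ICA1L and 1.34, 1.76 and 0.868 CPM in SRF (log2 fold change 1.97, SE 0.31, adjusted p 0.00524). SLC5A3, the sodium-dependent inositol transporter, was at 145, 112 and 91.4 CPM in SRF-ICA1L and 56.2, 51.1 and 36.03 CPM in SRF (log2 fold change 1.36, SE 0.20, adjusted p 0.00314), though it shares its locus with MRPS6. SLCO2A1, a prostaglandin transporter, was at 2.34, 4.55 and 3.71 CPM in SRF-ICA1L and 0.0371, 0 and 0 CPM in SRF; with 1 count in all SRF libraries together the ratio of summed counts was 293 (95% interval 52.2 to 11600, counting error only; adjusted p 0.00254). Among lower genes, likewise picked after seeing values, NTN1, the guidance cue netrin 1, was at 0.198, 0.208 and 0.125 CPM in SRF-ICA1L and 1.15, 1.76 and 0.486 CPM in SRF (log2 fold change -2.54, SE 0.53, adjusted p 0.0355). NTN1 was no longer called in 5 of 6 leave-one-library-out fits (adjusted p up to 0.163, without SRF replicate 2). NFATC4, a calcineurin-dependent transcription factor, was at 104, 91.5 and 101 CPM in SRF-ICA1L and 195, 184 and 148 CPM in SRF (log2 fold change -0.75, SE 0.15, adjusted p 0.0261). NFATC4 was no longer called in 5 of 6 leave-one-library-out fits (adjusted p up to 0.123, without SRF-ICA1L replicate 2).

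For some called genes the SRF libraries themselves stood away from the vector control. In the same fit PTER was at 5.74, 5.52 and 6.47 CPM in SRF-ICA1L and 2.04, 2.295 and 2.53 CPM in SRF and at 5.42, 5.29 and 6.75 CPM in pMSCV. It was lower in SRF than in pMSCV (log2 fold change -1.31, adjusted p 0.00707), and SRF-ICA1L against pMSCV gave 0.13 (adjusted p 0.833). EPM2A, the glycogen phosphatase laforin, was at 7.96, 7.92 and 7.35 CPM in SRF-ICA1L and 12.98, 12.2 and 11.6 CPM in SRF and at 6.798, 8.08 and 6.75 CPM in pMSCV; it was higher in SRF than in pMSCV (log2 fold change 0.80, adjusted p 0.0483). ST6GAL2, a sialyltransferase, was at 43.95, 78.2 and 51.96 CPM in SRF-ICA1L and 15.6, 13.8 and 10.4 CPM in SRF (log2 fold change 2.22, SE 0.29, adjusted p 0.00155) and at 47.8, 37.7 and 29.7 CPM in pMSCV. For ST6GAL2, SRF against pMSCV passed only with the block (log2 fold change -1.50, adjusted p 0.0209). The gene of carboxypeptidase M was the reverse, with 4.11, 3.52 and 3.01 CPM in pMSCV, near SRF-ICA1L (SRF against pMSCV with the block: log2 fold change 1.10, adjusted p 0.048). These 4 were picked for this pattern after their values were seen. For CDH3, CMKLR1, IGFBP5, ACTG2, COL11A1, THBS1 and TIMP3, by contrast, the SRF and pMSCV libraries all lay below SRF-ICA1L, and SRF against pMSCV was not called without the block. For COL11A1 each SRF library (4.34, 3.9 and 3.16 CPM) was nevertheless above each pMSCV library (1.52, 2.36 and 3.05 CPM).

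The same SRF-ICA1L libraries were then compared with the other 3 fusions, so the comparisons are not independent of the one with SRF. Of the 145 genes, 64 were also called in the same direction against SRF-PDGFRB, where 0.82% of all tested genes were called, 5 against the libraries labelled SRF-FOXO1 (0.027%) and 1 against SRF-RELA (0.0108%). None of them was called in the opposite direction. With the block 346 of the 878 were called in the same direction and 3 in the opposite one against SRF-PDGFRB (4.76% of all tested genes called), 70 and 7 against SRF-FOXO1 (0.911%), and 1 and 0 against SRF-RELA (0.0162%). ICA1L, itself named in the construct, was the single gene called against SRF and against each of the other 3. It is the 1 gene counted against SRF-RELA in both fits and is among the 5 against SRF-FOXO1. ICA1L was at 15.1, 9.15 and 13.3 CPM in SRF-RELA, 10.5, 8.34 and 10.6 CPM in SRF-FOXO1 and 12.7, 10.6 and 11.6 CPM in SRF-PDGFRB.

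The 5 genes called against both SRF and SRF-FOXO1 were ICA1L, EXTL1, KLHDC8A, ROR2 and ACP3. EXTL1 was at 0.335, 0.979 and 0.509 CPM in SRF-FOXO1 (log2 fold change of SRF-ICA1L over it 3.33, adjusted p 0.0298) and at 2.67, 6.07 and 4.09 CPM in SRF-RELA (adjusted p 0.999). ROR2 was at 0.101, 0 and 0.0925 CPM in SRF-FOXO1 and 0.355, 0.771 and 0.292 CPM in SRF-RELA, with adjusted p 0.0151 and 0.999. KLHDC8A, a kelch domain protein, was at 1.86, 2.501 and 1.71 CPM in SRF-ICA1L and 0.0371, 0.0383 and 0 CPM in SRF, at 0.0335, 0.117 and 0.139 CPM in SRF-FOXO1 and at 0.666, 0.491 and 0.376 CPM in SRF-RELA. Both ROR2 and KLHDC8A had every SRF-ICA1L library above every library of the other 5 groups. ACP3, prostatic acid phosphatase, was at 8.87, 3.65 and 3.09 CPM in SRF-ICA1L and 0.482, 0.803 and 1.08 CPM in SRF and at 1.01, 0.235 and 0.648 CPM in SRF-FOXO1. CDH3 differed from these: at 16.97, 50.1 and 21.5 CPM in SRF-RELA, 4.86, 20.4 and 10.1 CPM in SRF-FOXO1 and 0.0348, 0 and 0 CPM in SRF-PDGFRB, it was called against SRF-PDGFRB alone (adjusted p 0.000692), and with the block also against SRF-FOXO1 (log2 fold change 1.44, adjusted p 0.00466). ACTG2, at 396, 590.3 and 485 CPM in SRF-FOXO1, 139.8, 384 and 211 CPM in SRF-RELA and 11.1, 24.4 and 30.7 CPM in SRF-PDGFRB, was called against none of the 3 without the block, and with it against SRF-PDGFRB (adjusted p 0.00441). IGFBP5 was at 152, 121 and 168 CPM in SRF-RELA and 21.6, 6.28 and 27.7 CPM in SRF-PDGFRB, and SRF-ICA1L exceeded the latter by a log2 fold change of 3.83 (adjusted p 0.00755). A missed threshold against SRF-RELA does not show that the 2 fusions act alike.

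**Figure D4:**
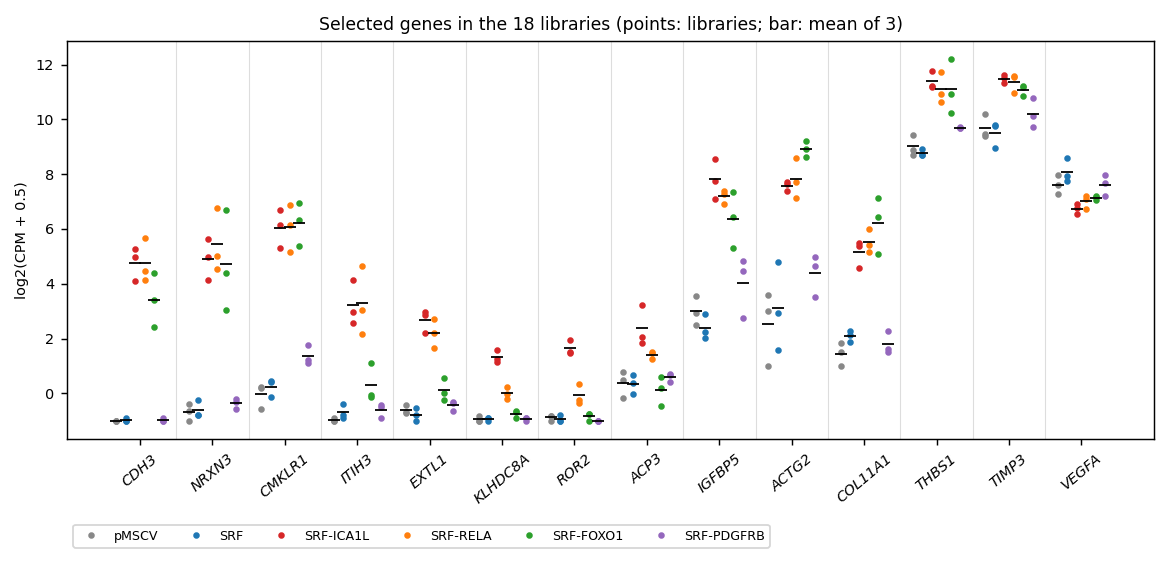
Log2(CPM + 0.5) of 14 genes in the 18 libraries, coloured by group; points are libraries and bars are means of 3. In CDH3, NRXN3, CMKLR1 and ITIH3 the SRF-ICA1L and SRF-RELA libraries overlap, and in KLHDC8A and ROR2 the SRF-ICA1L libraries lie above all others.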

How the data were processed

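RNA of 18 MSC-hTERT libraries was sequenced, per the labels' protocols, on a NovaSeq instrument from stranded mRNA preparations. The authors deposited raw counts per Ensembl gene, per the file headers; FastQC 0.11.8, Trimmomatic 0.39, HISAT2, featureCounts from Subread 2.0.3 and GRCh38 are listed in the submitters' processing notes, and strand use in counting is not given in the sources used here. Symbols came from a gene name table (61369 of 61487 identifiers) and GENCODE release 29 (105), which also gave GRCh38 positions.

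Genes were kept by filterByExpr (minimum count 10), libraries scaled by TMM, and a robust quasi-likelihood model fitted to the 18 libraries with 6 groups in edgeR 4.0.16 and R 4.3.3 (12 residual degrees of freedom, 10 with the replicate block). The common biological coefficient of variation was 0.225, and 0.15 with the block. F tests were two-sided. A standard error is the absolute log2 fold change over the square root of F. CPM are counts over the library total, without TMM factors. Totals ran from 19362319 to 29806771 over the 18 libraries, and a count of 0 allows up to 3 counts, or 0.104 to 0.125 CPM in the 6 libraries, counting error only.

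In SRF and SRF-ICA1L the replicate numbers pair the libraries by their values. Deviations from group means correlated at 0.343, 0.407 and 0.444 for the same number and at -0.317 to -0.070 for different numbers. Deviations cancel out within a group, so positive values for the same number force negative ones for different numbers on balance. The other groups were not part of this check. The labels do not say what a number marks.

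Members and lists were chosen with earlier results of these data known. Genes are named by a rule, which takes SRF and ICA1L first. It adds the 14 higher and 10 lower genes of largest change called both ways, without overlap and at or over the limit on level. That limit is an edgeR log2 CPM of at least 1 over the 18 libraries, a value that follows the mean CPM. Within the same limits it adds the 6 higher and 6 lower called only with the block. Members of 24 lists that were called, or the member of largest change, follow. The last are ACTG2, ACTA2, CNN1, TAGLN, MYH11, MYOCD, VCL, FOS, EGR1 and ICA1. The model was tested on simulated data.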

Additional observations from a re-analysis of the deposited data

How the results depend on the processing

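For SRF-ICA1L against SRF, the 145 genes called became 147 with DESeq2 size factors, 148 with scaling by total count, 150 without a count filter and 115 when a fold change of 1 or more in size on the log2 scale was also required. They became 446 by the DESeq2 1.42.0 Wald test, 81 with at least 10 counts in every library and 72 with only the 6 libraries in the fit, which has 4 residual degrees of freedom. With the replicate block they became 878, and 599 with the block in the 6 libraries alone. The split of 118 higher and 27 lower genes became 106 and 42 with scaling by total count, 320 and 126 by DESeq2, and 66 and 6 with only the 6 libraries. The lower genes numbered 9, 5 and 23 without SRF replicates 1, 2 and 3, and 15, 4 and 5 without SRF-ICA1L replicates 1, 2 and 3. Leaving out 1 library gave 48 (SRF replicate 2) to 111 (SRF-ICA1L replicate 1). With the block and without 1 library, an alternative chosen after seeing the data, the counts were 804, 283 and 1117 without SRF replicates 1, 2 and 3, and 634, 368 and 352 without SRF-ICA1L replicates 1, 2 and 3. Of the genes called against SRF, those also called in the same direction against at least 1 other fusion went from 64 to 176 by DESeq2, 29 with at least 10 counts in every library, 353 with the block, and 28 to 60 without 1 library. With the block and in the same order of libraries they were 318, 170, 509, 299, 142 and 165. The replicate block, whose pairing is read from the values (correlations 0.343, 0.407 and 0.444), ended none of the 145 calls and turned no direction among the named genes. Of the 204 genes with values per library in the tables, 204 kept their call or lack of one with DESeq2 size factors and 188 with scaling by total count. Directions reversed for genes that were not called without the block, given as ranges of log2 fold change over the 6 fits without 1 library: NR4A2 from -3.85 to 0.51, MKI67 from -0.42 to 0.97, MYOCD from -3.13 to 0.42, FOS from -1.32 to 0.45, EGR1 from -0.50 to 1.07 and ICA1 from -0.59 to 0.011. With the block FOS went to 0.047 without SRF replicate 1 and to 0.14 without SRF-ICA1L replicate 3, and MYH11 to -0.10 without SRF replicate 2. FOS stood at 0.14 without SRF-ICA1L replicate 2, and EGR1 at -0.36 and -0.003 without SRF replicates 2 and 3. The cause of these changes was not tested.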
